A study of Mus musculus with 3 samples.

Results

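The Pax genes examined were Pax1, Pax2, Pax3, Pax6, Pax7, Pax8 and Pax9, and their chromatin was described from the called regions of H3K27me3 and H3K4me3 in mouse primordial germ cells. Members were the regions overlapping 7 windows of genome build mm9 by at least 1 bp. The windows were Pax1 on chromosome 2 (147.17 to 147.22 Mb), Pax9 on chromosome 12 (57.77 to 57.83 Mb), Pax2 on chromosome 19 (44.79 to 44.93 Mb), Pax8 on chromosome 2 (24.26 to 24.35 Mb), Pax3 on chromosome 1 (78.08 to 78.21 Mb), Pax7 on chromosome 4 (139.28 to 139.41 Mb) and Pax6 on chromosome 2 (105.49 to 105.55 Mb). They held 35 of the 18731 H3K27me3 regions and 46 of the 47928 H3K4me3 regions. The genes were chosen by their called H3K27me3 and H3K4me3 regions, that is, by the position and width of the same regions reported here, so the values below describe them and no test was made.

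Chromatin immunoprecipitation and sequencing (ChIP-seq) was done on germ cells at E11.5, from embryos of an Oct4:GFP B6 line crossed to Swiss-Webster mice. Gonadal regions of many embryos were pooled and the GFP+ cells sorted, so the reporter of Oct4, a pluripotency and germ line gene, defines the population. An anti-H3K27me3 and an anti-H3K4me3 sample, each standing for 2 replicates, gave 1 list of regions per mark, while the input sample was not analysed here. The lists hold positions on a 200-bp grid without read counts, so depth is unknown and no value has a replicate error; whether other gonadal cells passed the gate was not examined.

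Pax genes encode transcription factors that bind DNA through a paired domain and set up organs in the embryo. They fall into subgroups of close relatives: Pax1 with Pax9, Pax2 with Pax8 (and Pax5), Pax3 with Pax7, and Pax6 with Pax4. Pax4 and Pax5 were not analysed here. H3K27me3 is the Polycomb mark of silent developmental genes, H3K4me3 is typical of CpG-rich and active promoters, and places with both are termed bivalent. Each mark was precipitated on its own from many cells, and co-location in the lists leaves unknown whether single nucleosomes or single cells carried both.

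No annotation of mm9 was used here, so where a promoter lies among the regions could not be read. In the RefSeq gene table of assembly GRCm38, each of the 7 genes lies on the chromosome of its window, and the genes of chromosome 2 follow the same order, Pax8, Pax6 and Pax1. RefSeq promoter sequences of build GRCm38.p6 were available for 6 of the 7 genes (9 start sites), and not for Pax3. The 250 bases before a start site held 5 to 25 CpG dinucleotides at these 9 sites (median 13), against a median of 6 over all 32841 promoters of the table. The median weighs Pax2 and Pax6 more, since they have more than 1 site each. The single sites of Pax1, Pax7 and Pax9 held 10, 13 and 7. The motif searched was CG, which reads the same on both strands, and 92.1% of all promoters held at least 1. Sequences are shown for Pax2 and Pax8, the subgroup with the widest and the narrowest H3K27me3 domain, and for Pax6, whose window carried the most H3K4me3; capitals mark CpG. The 3 listed Pax2 start sites had 5, 20 and 25 CpG, numbers reached by 55.6%, 18.0% and 10.7% of all promoters, so the first held fewer than the Pax8 site and the others more. The second, with the middle count, is printed (chr19:44755502-44755751, plus strand, GRCm38.p6). The Pax8 site (chr2:24475600-24475849, minus strand) had 6, reached by 50.4%, and the first of 2 Pax6 sites (chr2:105668646-105668895, plus strand) had 15, reached by 27.3%, as did the second. The coordinates of these sequences belong to another build than the regions and cannot be set beside them.
Pax2: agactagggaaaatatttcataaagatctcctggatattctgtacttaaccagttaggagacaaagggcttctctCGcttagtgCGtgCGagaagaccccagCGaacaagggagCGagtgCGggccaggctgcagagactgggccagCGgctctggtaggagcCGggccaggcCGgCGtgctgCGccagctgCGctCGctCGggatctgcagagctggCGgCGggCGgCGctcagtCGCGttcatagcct
Pax8: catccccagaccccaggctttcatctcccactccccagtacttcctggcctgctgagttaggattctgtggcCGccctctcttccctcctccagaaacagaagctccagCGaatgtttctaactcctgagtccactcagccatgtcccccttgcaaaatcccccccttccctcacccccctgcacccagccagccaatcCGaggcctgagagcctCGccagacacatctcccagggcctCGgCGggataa
Pax6: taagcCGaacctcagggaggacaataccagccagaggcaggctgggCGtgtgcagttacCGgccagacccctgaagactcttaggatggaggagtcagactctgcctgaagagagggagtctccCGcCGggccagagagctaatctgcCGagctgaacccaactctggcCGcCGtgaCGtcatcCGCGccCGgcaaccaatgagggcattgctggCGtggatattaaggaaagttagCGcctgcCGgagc

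H3K27me3 was called in all 7 windows, but in forms that ranged from 1 focal region to a nearly unbroken domain. It covered 353.4 kb of the 660.0 kb of the windows, or 53.5%. The share was 96.7% at Pax2, 71.1% at Pax7, 60.3% at Pax6, 48.8% at Pax1, 37.0% at Pax9, 27.2% at Pax3 and 8.22% at Pax8. These shares depend on how far each window reaches past its gene, and with windows extended by 20 kb on both sides Pax1, Pax6 and Pax9 came to 29.8%, 37.6% and 22.2%. With windows trimmed by 10 kb on both sides they came to 70%, 69% and 53.5%. The order of the genes changed too: Pax3, at 25.2%, passed Pax9 with the extension, and Pax1 passed Pax6 with the trimming. The widest region per gene measured 113.0 kb at Pax2, 35.8 kb at Pax3, 33.0 kb at Pax7, 20.8 kb at Pax6, 16.4 kb at Pax9, 13.6 kb at Pax1 and 7.4 kb at Pax8. Of the 35 regions, 4 were wider than 20 kb, where 1.7% of all H3K27me3 regions were, and 17 measured 5 kb or more, against 17.8% of all. The median width was 4400 bp, against 1800 bp over the whole list.

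**Figure D1:**
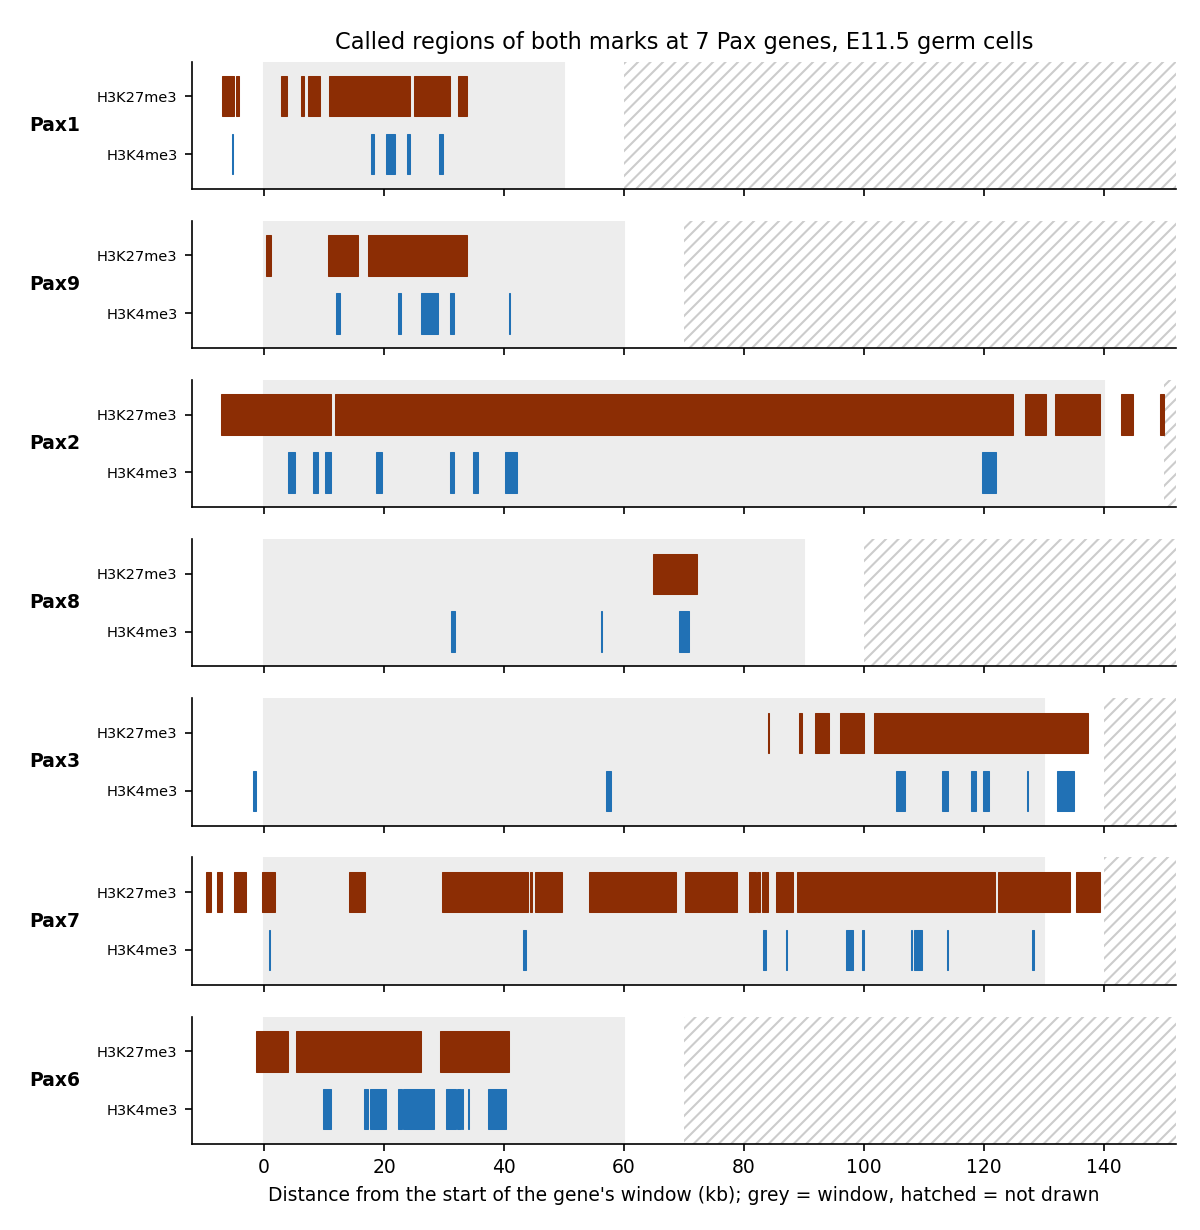
Called regions of H3K27me3 (brown) and H3K4me3 (blue) at the 7 Pax genes, against distance in kb from the start of each window (grey) with 10 kb either side. Outlines are slightly thickened so that 200-bp regions stay visible, which fills gaps of 200 bp, and hatching marks sequence that is not drawn. Pax2 is covered over 96.7% of its window, Pax8 carries 1 region of 7.4 kb, and most H3K4me3 regions lie under H3K27me3.

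H3K4me3 formed islands inside this H3K27me3. Of the 46 H3K4me3 regions, 42 overlapped H3K27me3 (91.3%, 95% Wilson interval 79.7 to 96.6%, counting error only), against 18.8% of all H3K4me3 regions. The windows were chosen by these regions and H3K27me3 covered 53.5% of them, so a share above that of the whole list is no test. The interval treats neighbouring regions of the same window as independent, which they may not be. Wholly inside a H3K27me3 region were 41, against 14.5% of all, and 1, at Pax6, was partly inside. The other 4 lay outside, 2 at Pax8, 1 at Pax3 and 1 at Pax9. Both marks together covered 42.4 kb, which was 91.4% of the H3K4me3 and 12.0% of the H3K27me3 in the windows. The islands were short, with a median of 700 bp against 800 bp for all H3K4me3 regions and 1000 bp for all those overlapping H3K27me3. Single 200-bp steps made up 9 of the 46 (19.6%), against 25.7% of all.

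Wider H3K27me3 regions held islands more often than narrow ones, as in the whole list. Of the 35 H3K27me3 regions, 16 held H3K4me3 (45.7%, 95% Wilson interval 30.5 to 61.8%, counting error only), near the 37.5% of all. Among regions of 5 kb or more it was 13 of 17, where 63.8% of all such regions held some, and among narrower ones 3 of 18, where 31.8% did. These 3 narrow regions all lay at Pax7 and measured 2.2, 1.0 and 2.8 kb. All 4 regions over 20 kb held H3K4me3, as did 84.3% of all 318 regions of that width. The 4 regions of at least 5 kb without it lay at Pax7 (14.4 and 8.6 kb), Pax2 (7.6 kb) and Pax6 (5.4 kb).

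**Figure D2:**
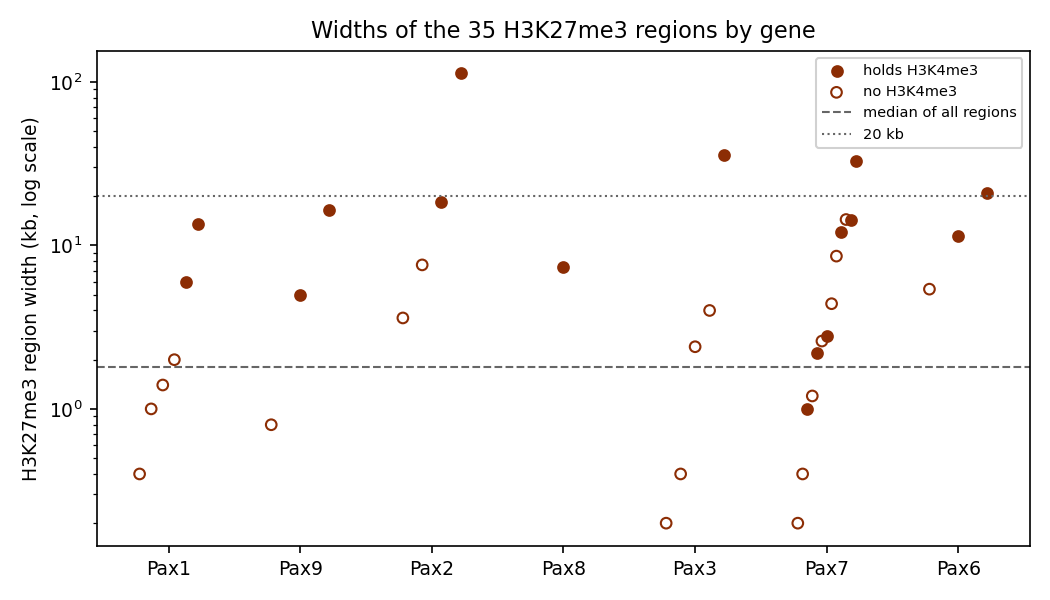
Width in kb (log scale) of each of the 35 H3K27me3 regions by gene, filled where the region holds H3K4me3 and open where it does not, with the median of all regions (1.8 kb, dashed) and 20 kb (dotted). In each window the widest region holds H3K4me3, and Pax2, Pax3, Pax7 and Pax6 each have 1 region over 20 kb.

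Pax1 and Pax9, which act in the sclerotome that forms vertebrae and in the pharyngeal pouches, carried compact domains of similar size. H3K27me3 covered 24.4 kb at Pax1 in 6 regions and 22.2 kb at Pax9 in 3. The widest Pax1 region (chr2:147180801-147194400, 13.6 kb) held 3 H3K4me3 islands of 0.6, 1.4 and 0.6 kb, the last ending exactly where the H3K27me3 region ended. A gap of 600 bp separated it from the next H3K27me3 region (chr2:147195001-147201000, 6.0 kb), which held the fourth island, of 0.6 kb. At Pax1 the islands lay in the right part of the widest region, since its first 7.0 kb held no H3K4me3. The widest Pax9 region (chr12:57787401-57803800, 16.4 kb) held islands of 0.4, 2.8 and 0.6 kb, and the 2.8-kb island (chr12:57796201-57799000) was centred at 62.2% of its width. A second Pax9 region (chr12:57780601-57785600, 5.0 kb) held 1 island of 0.6 kb, and a 200-bp H3K4me3 call lay 7.0 kb from any H3K27me3. The pair thus had 4 and 5 H3K4me3 regions over 3.2 kb at Pax1 and 4.6 kb at Pax9.

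Pax2 and Pax8, which serve kidney development together, with Pax8 also driving the thyroid, were the least alike of the 3 pairs in H3K27me3. The sequence covered was 135.4 kb at Pax2 and 7.4 kb at Pax8, a ratio of 18.3, against 2.61 for Pax7 over Pax3 and 1.10 for Pax1 over Pax9. Windows differ in length, and by share of the window covered these ratios were 11.8, 2.61 and 1.32. The widest Pax2 region (chr19:44801801-44914800, 113.0 kb) was the fourth widest of all 18731. It was flanked on the left, across a 600-bp gap, by a region of 18.4 kb (chr19:44782801-44801200) that began 7.2 kb before the window, and on the right by regions of 3.6 and 7.6 kb (chr19:44921801-44929400). Of 8 H3K4me3 regions, 7 lay in the left part of the window, between 44794001 and 44832200, and 1 near the right end.

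The H3K4me3 islands of Pax2 were followed by a long stretch of H3K27me3 alone. The 113.0-kb region held islands of 1.0, 0.6, 0.8, 2.0 and 2.4 kb, centred 7.3, 19.5, 23.4, 29.4 and 109.0 kb from its left end. Between the fourth and the last, 77.4 kb of H3K27me3 (chr19:44832201-44909600) carried no called H3K4me3, which was 68.5% of the region. Of all 18731 H3K27me3 regions, 4, this one included, had a stretch at least as long. H3K4me3 covered 6.02% of the region, against a median of 8.76% over the 318 regions wider than 20 kb.

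Pax8 had the sparsest window. Its single H3K27me3 region (chr2:24324801-24332200, 7.4 kb) held 1 H3K4me3 region of 1.6 kb (chr2:24329201-24330800), which covered 21.6% of it. H3K4me3 regions of 0.6 and 0.2 kb lay 33.0 and 8.4 kb away, outside any H3K27me3. Among tiles of the window's length, 90 kb, laid end to end from each chromosome's start to its last called region, 7.83% held at least as much H3K27me3.

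**Figure D3:**
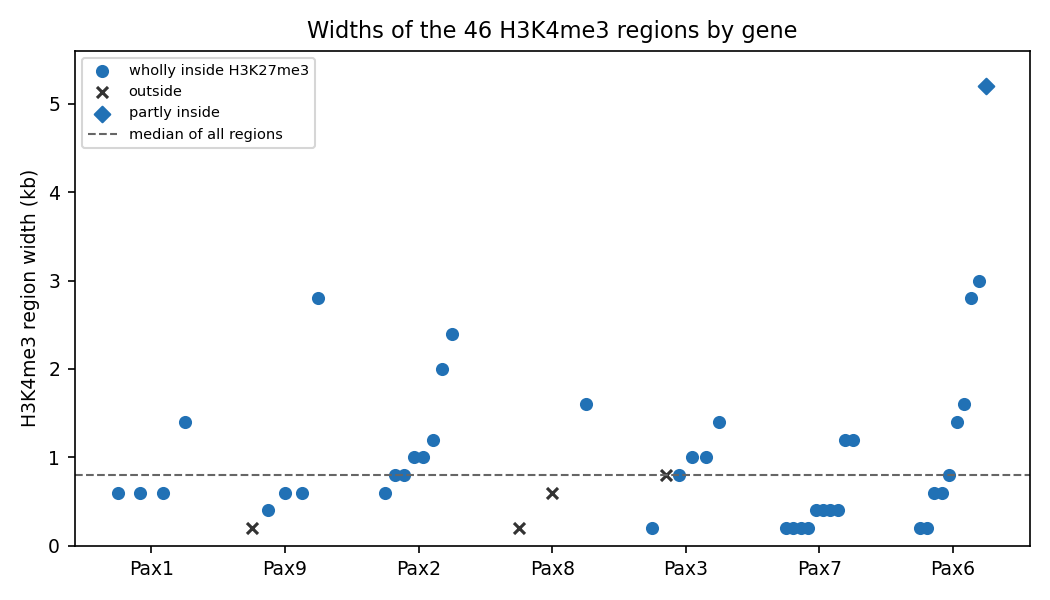
Width in kb of each of the 46 H3K4me3 regions by gene; circles lie wholly inside H3K27me3, the diamond partly inside and crosses outside, and the dashed line is the median of all H3K4me3 regions (0.8 kb). The widest, 5.2 kb, is at Pax6, and none at Pax7 exceeds 1.2 kb.

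Pax3 and Pax7, regulators of neural crest and of muscle precursors, had widest H3K27me3 regions of similar size in windows of equal length. They differed in the number of regions and in the sequence that H3K27me3 covered, while H3K4me3 covered 5.2 kb at Pax3 and 4.8 kb at Pax7. The window held 35.4 kb of H3K27me3 in 5 regions at Pax3 and 92.4 kb in 13 regions at Pax7. The widest Pax3 region (chr1:78181601-78217400, 35.8 kb) made up 83.6% of the summed H3K27me3 width, and the widest Pax7 region (chr4:139368801-139401800, 33.0 kb) 34.0%. At Pax3, H3K27me3 began 84.0 kb into the window with a 200-bp call, and the left part of the window held only 1 H3K4me3 region of 0.8 kb, 26.2 kb from any H3K27me3. The widest Pax3 region ran 7.4 kb past the right edge of the window. It held 6 H3K4me3 islands, 5 in the window (1.4, 1.0, 0.8, 1.0 and 0.2 kb) and 1 of 2.8 kb (chr1:78212201-78215000) that starts 2.2 kb past the edge and is not counted among the 46. Together they covered 20.1% of the region.

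Pax7 had the most H3K27me3 regions and gaps of the 7 windows, in one of the longer windows. Its regions left 12 gaps of 0.2 to 12.8 kb, and 6 of the 12 were under 1 kb. From the first to the last region, H3K27me3 filled 72.1% of the span at Pax7, against 66.5% at Pax9, 78.7% at Pax1 and 80.1% at Pax3. Besides the widest region, regions of 14.4 kb (chr4:139309601-139324000), 14.4 kb (chr4:139334201-139348600), 8.6 kb (chr4:139350201-139358800) and 12.0 kb (chr4:139402401-139414400) were called. The 10 H3K4me3 regions were narrow, with a median of 400 bp and 4 of them of 200 bp, and covered 4.8 kb. The widest, of 1.2 kb each (chr4:139377001-139378200 and chr4:139388401-139389600), both lay in the 33.0-kb region. H3K4me3 took up 5.19% of the H3K27me3 at Pax7, the lowest share of the 7 windows, against 39.2% at Pax6.

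Pax6, needed for the eye, the brain and the pancreas, carried the most H3K4me3. Its 10 H3K4me3 regions covered 16.4 kb, or 27.3% of the window, against 2.67 to 7.67% in the other 6 windows. Of tiles of 60 kb laid over the genome, 0.170% (75 of 43998) held at least as much H3K4me3. For the other 6 windows, with tiles of their own lengths, the share ran from 6.77% at Pax2 to 24.7% at Pax8. The windows were set with these regions known, so the shares are no test. The islands lay in H3K27me3 regions of 20.8 kb (chr2:105495401-105516200) and 11.4 kb (chr2:105519401-105530800), which held 5 each, and another H3K27me3 region of 5.4 kb (chr2:105488601-105494000) had none. H3K4me3 covered 41.3% of the 20.8-kb region, and among the 318 regions over 20 kb, 4, this one included, had as high a share. It covered 49.1% of the 11.4-kb region.

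The widest H3K4me3 region at Pax6 crossed a break in H3K27me3. It measured 5.2 kb (chr2:105513201-105518400), ranked 282nd of 47928, and ran 3.0 kb within the 20.8-kb region and 2.2 kb into the gap of 3.2 kb that follows. Of the 28 gaps between neighbouring H3K27me3 regions in the 7 windows, this was the only one with H3K4me3 in it. Another 2 gaps, of 600 bp each at Pax1 and Pax2, were bordered by an island ending at the gap. Further Pax6 islands measured 3.0 kb (chr2:105527401-105530400) and 2.8 kb (chr2:105507601-105510400). The 3.0-kb overlap segments at Pax6 ranked 192nd of the 9132 segments where both marks met, whose median was 800 bp.

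**Figure D4:**
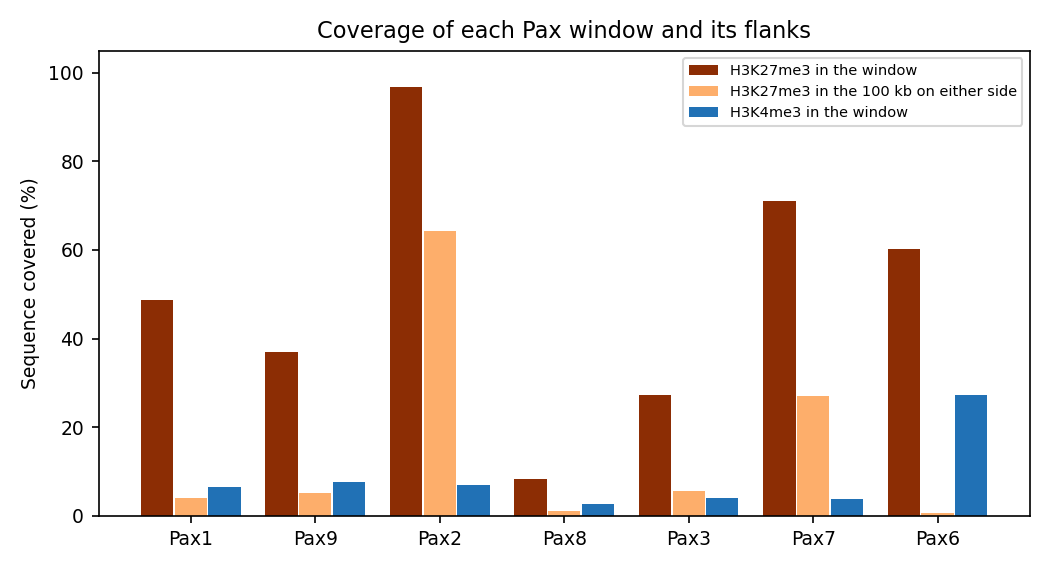
Percentage of sequence covered by H3K27me3 in each window (brown), by H3K27me3 in the 100 kb on either side of it (orange, mean of both sides) and by H3K4me3 in the window (blue). Window coverage exceeds flank coverage at all 7 genes, but the windows were chosen with these regions known, so this is no test. Pax2 has the highest flank coverage, 64.2%, the mean of 91.8% on the left and 36.6% on the right.

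Continuity was followed by joining regions across gaps. Of the 28 gaps, 9 were under 1 kb, against 13.7% of all gaps between neighbouring regions, and 3 exceeded 5 kb, against 59.0% of all, though a gap here cannot exceed its window. Of the 9 under 1 kb, 6 lay at Pax7, 2 at Pax1 and 1 at Pax2. The median gap was 1500 bp. With regions less than 1 kb apart joined, the widest stretch was 132.0 kb at Pax2, 49.0 kb at Pax7, 35.8 kb at Pax3, 20.8 kb at Pax6, 20.2 kb at Pax1, 16.4 kb at Pax9 and 7.4 kb at Pax8. Joining across gaps under 5 kb gave 318.0 kb at Pax2, 109.8 kb at Pax7, 48.2 kb at Pax3, 42.2 kb at Pax6, 31.0 kb at Pax1, 23.2 kb at Pax9 and 7.4 kb at Pax8. At Pax7, whose widest single region ranked 104th of 18731 by width, the joined stretch ranked 30th of 11193, and it contained 12 regions with 9 H3K4me3 regions.

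The joined stretch of Pax2 (chr19:44657601-44975600) was the second longest of the 11193 and reached well past the window. It extended 132.4 kb to the left and 45.6 kb to the right, held 15 H3K27me3 regions filling 92.3% of its length, and met 18 H3K4me3 regions. To the left it included a region of 67.0 kb with 6 H3K4me3 regions (chr19:44698401-44765400), and to the right one of 25.0 kb with 1 (chr19:44944201-44969200). In GRCm38 the neighbouring protein-coding genes are Hif1an and Slf2, and whether the stretch covers them was not determined.

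The other windows had lower flank coverage than Pax2, though on the right Pax7 came close to it. The windows were chosen with these regions known, so lower coverage outside them than inside is no test. In the 100 kb on the left and on the right, H3K27me3 covered 18.2 and 35.8% at Pax7, 10.4 and 0% at Pax9, 7.8 and 0% at Pax1, 0 and 11.2% at Pax3, 0.6 and 1.4% at Pax8 and 1.4 and 0% at Pax6, against 91.8 and 36.6% at Pax2. To the right of Pax6 the next H3K27me3 region lay 1210.4 kb away and measured 0.4 kb. Within 200 kb of the windows of Pax3, Pax6 and Pax8, no H3K27me3 region of 5 kb or more was called. Around Pax7 there were 4, the widest of 10.8 kb. Left of Pax1, regions of 11.2 and 13.6 kb with 8 and 3 H3K4me3 regions lay 155.0 and 140.6 kb away. Left of Pax9, a region of 26.4 kb with 3 H3K4me3 regions lay 126.0 kb away and one of 8.0 kb with 1 lay 52.0 kb away. In GRCm38 the gene next to Pax1 on the left is Nkx2-2 and on the right Foxa2, and left of Pax9 come Nkx2-9 and Nkx2-1, all of them developmental transcription factor genes. Which of these genes the flanking regions cover was not determined.

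**Figure D5:**
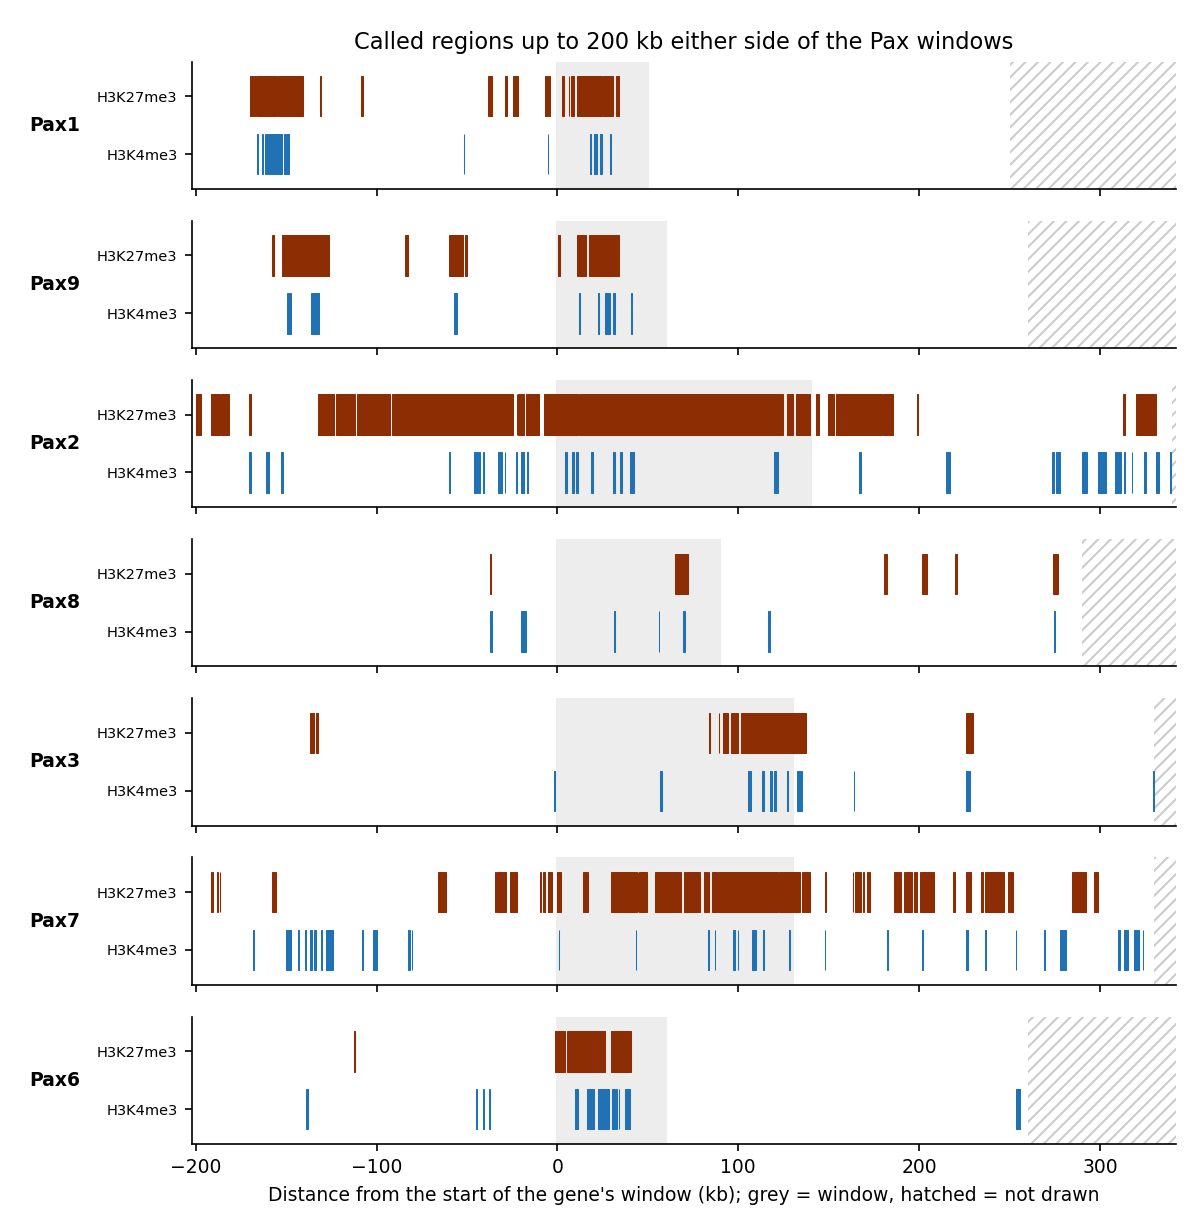
Called regions of H3K27me3 (brown) and H3K4me3 (blue) up to 200 kb either side of each Pax window (grey), against distance in kb from the window's start; hatching marks sequence that is not drawn, and outlines are slightly thickened. Pax2 lies in a run of H3K27me3 that reaches 132.4 kb left of the window, while Pax6, Pax8 and Pax3 have no region of 5 kb or more outside theirs.

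Set against the whole genome, the windows were rich in H3K27me3 to very different degrees. Of 140-kb tiles, 68.6% held no H3K27me3 and 2 of 18851 held as much as the Pax2 window. The share of tiles of the same length with at least as much was 0.212% for Pax7, 0.655% for Pax6, 1.14% for Pax1, 1.71% for Pax9, 2.16% for Pax3 and 7.83% for Pax8. A tile may include part of the window itself. Tile borders were fixed and may split a domain, while the windows were set with the regions known, so the shares may come out too small. As the genes were chosen for their H3K27me3, these shares place the windows and do not test them. The order of H3K4me3 was not that of H3K27me3: Pax6 had 16.4 kb, Pax2 9.8 kb, Pax3 5.2 kb, Pax7 4.8 kb, Pax9 4.6 kb, Pax1 3.2 kb and Pax8 2.4 kb. With 1 list per mark, none of these orders has a replicate check.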

How the data were processed

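H3K27me3 and H3K4me3 were profiled by ChIP-seq in sorted germ cells. The submitters' processing notes name the aligner Bowtie (0.12.7) and genome build mm9. The deposited lists, named as contiguous ChromHMM regions per the file names, hold the authors' start and end of each region in bp and no measured level. How ChromHMM was set, whether input was used and how the 2 replicates were combined is not given in the sources used here. All region ends fit a 200-bp grid (0 regions off it), so widths and gaps come in steps of 200 bp.

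Overlaps needed 1 bp, and printed coordinates count from 1. Region counts and widths use whole regions, coverage only the part inside a window. No test was made, since each mark has 1 list and regions are not replicates. The members, windows, named regions (the widest of each mark, and every H3K27me3 region of 5 kb or more) and measures were chosen with earlier results of these data known. Promoters and gene order came from RefSeq (GRCm38). Interval functions were checked on simulated lists. Software was matplotlib 3.10.9, pandas 2.3.3, scipy 1.17.1 and numpy 2.4.6 under Python 3.11.15.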

Additional observations from a re-analysis of the deposited data

How the results depend on the processing

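The alternatives left out regions of 400 bp or less, joined neighbours across gaps under 1 kb, or used windows extended by 20 kb or trimmed by 10 kb on both sides, stricter overlaps, or 6 genes with each left out in turn. Counts, widths and coverages were called alike within 1.5 times the reported value, and the overlap share inside its Wilson interval. Of 96 values, 91 were alike and 5 moved. The share of H3K4me3 regions overlapping H3K27me3 became 76.1% with an overlap of at least 400 bp, by construction, since 7 of the 42 overlapping regions are 200 bp wide. The number of H3K27me3 regions became 22 without Pax7, against 35. Without Pax2, H3K27me3 covered 41.9% of the remaining windows, against 53.5%, and without Pax6, H3K4me3 covered 5.0%, against 7.03%. The coverage of single windows moved for Pax1, Pax6 and Pax9 with the extension, to 29.8%, 37.6% and 22.2%. No paired analysis was possible because each mark has 1 list and no test was made, and no replicate could be left out. Without read counts, depth limits to an unknown degree which regions and gaps were called.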
